A study of Mus musculus with 18 samples.

Results

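A set of 9 secreted proteins of the acute phase and of innate defence were followed in dendritic cells: serum amyloid A (Saa1, Saa2 and Saa3), haptoglobin (Hp), lipocalin 2 (Lcn2), secretory leukocyte peptidase inhibitor (Slpi), complement C3, complement factor B (Cfb) and pentraxin 3 (Ptx3). These 9 genes, of 23420 listed in each library, were chosen by name with earlier results of these data known, so the tests below describe them and do not show that they stand apart from other genes. RNA sequencing was done on dendritic cells grown from C57BL/6 mouse bone marrow in GM-CSF and sorted alive for high CD11c after 8 hours of treatment. Each of 6 groups had 3 libraries. The first pair of groups was Bat3 fl/fl CD11c Cre cells (cKO) with lipopolysaccharide (LPS, a bacterial wall component) and cKO cells in medium. The other 4 were wild-type (WT) cells with LPS plus IL-10 and TGF-beta, WT cells with IL-10 and TGF-beta alone (here "cytokines"), WT cells with LPS and WT cells in medium. Bat3, listed as Bag6, encodes a chaperone that guards newly made membrane proteins. The Cre recombinase is driven by CD11c, so deletion is limited to cells that have switched that promoter on, and the labels do not say whether the WT cells carried a floxed allele or Cre.

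The acute phase is the change in secreted proteins that follows infection or injury. It is driven in liver by IL-6 and IL-1 through STAT3, C/EBP and NF-kappa-B transcription factors. Myeloid cells make several of the same proteins locally, and neutrophils store haptoglobin, lipocalin 2 and pentraxin 3 in granules. Saa1 and Saa2 are the main circulating forms in mice, carried on high-density lipoprotein, while Saa3 is made largely outside the liver.

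Library totals ran from 8056831 to 12068759 expected counts. Bag6 averaged 9.36 CPM (counts scaled to library size) in cKO LPS and 5.56 CPM in cKO medium, against 24.0 CPM in WT LPS and 23.5 CPM in WT medium. Dendritic cell markers were present, with Itgax (CD11c) between 254 and 1010 CPM in every library. Of 6 such markers, 5 passed the filter on low counts. Their summed level was 1070 to 1410 CPM in WT LPS with cytokines and 1210 to 1670 CPM in WT cytokines. It was 5850 to 6450 CPM in WT LPS and 3420 to 7330 CPM in WT medium. Flt3 did not pass the filter and was at most 0.441 CPM. In bulk RNA, fewer cells of a type and less RNA per cell cannot be told apart. Hepatocyte markers were at 0 apart from Ttr in a single cKO LPS library, at 0.141 CPM. Rn45s, a ribosomal precursor RNA, took 1.28% to 4.01% of counts in cKO medium and 6.38% to 8.02% in WT medium. By the level of the sex-linked RNA Xist alone, the first replicate of both cKO groups had a female pattern and the other 16 libraries a male one.

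Promoter sequences were at hand for 7 of the 9 genes, from RefSeq on GRCm38.p6, the assembly that the mm10 build of the files names. Each runs from 250 bases before the start of transcription to 50 bases into the gene. Those of Saa1, Saa2, Saa3, Lcn2 and Ptx3 are shown because the first 4 genes were highest in WT LPS with cytokines and Ptx3 was lowest there. Capitals mark the letters TTGCNNAA, a C/EBP-type motif, searched on both strands. All are written 5' to 3' in the direction of the gene.
Saa1 (chr7:46742931-46743230, minus strand): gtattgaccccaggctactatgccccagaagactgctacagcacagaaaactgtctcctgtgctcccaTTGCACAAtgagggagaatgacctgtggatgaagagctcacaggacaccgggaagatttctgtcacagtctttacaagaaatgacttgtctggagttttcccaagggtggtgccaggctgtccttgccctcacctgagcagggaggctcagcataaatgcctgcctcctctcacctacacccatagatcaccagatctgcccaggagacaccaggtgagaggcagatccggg
Saa2 (chr7:46751583-46751882, plus strand): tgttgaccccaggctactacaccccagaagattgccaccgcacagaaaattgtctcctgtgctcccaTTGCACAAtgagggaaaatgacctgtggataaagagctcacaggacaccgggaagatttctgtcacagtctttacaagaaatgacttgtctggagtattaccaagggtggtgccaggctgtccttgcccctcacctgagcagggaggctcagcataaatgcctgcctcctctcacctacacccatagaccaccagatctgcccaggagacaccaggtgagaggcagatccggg
Saa3 (chr7:46715627-46715926, minus strand): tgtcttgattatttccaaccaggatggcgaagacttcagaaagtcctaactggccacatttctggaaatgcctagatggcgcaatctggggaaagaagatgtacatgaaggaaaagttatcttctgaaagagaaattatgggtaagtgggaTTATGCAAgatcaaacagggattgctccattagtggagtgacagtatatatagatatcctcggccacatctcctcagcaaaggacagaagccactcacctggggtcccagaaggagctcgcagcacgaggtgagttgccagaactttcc
Lcn2 (chr2:32387690-32387989, minus strand): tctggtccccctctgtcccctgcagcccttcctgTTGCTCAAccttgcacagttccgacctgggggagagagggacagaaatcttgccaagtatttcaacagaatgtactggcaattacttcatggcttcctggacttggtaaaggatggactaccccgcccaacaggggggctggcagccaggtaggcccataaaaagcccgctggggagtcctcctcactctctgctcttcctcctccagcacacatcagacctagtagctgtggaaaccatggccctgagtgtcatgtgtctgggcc
Ptx3 (chr3:66219637-66219936, plus strand): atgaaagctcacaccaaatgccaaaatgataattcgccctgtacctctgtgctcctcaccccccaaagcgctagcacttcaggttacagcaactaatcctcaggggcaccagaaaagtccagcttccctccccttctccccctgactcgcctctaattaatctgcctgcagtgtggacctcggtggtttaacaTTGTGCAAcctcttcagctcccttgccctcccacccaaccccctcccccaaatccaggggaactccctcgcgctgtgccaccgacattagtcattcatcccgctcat

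The C/EBP letters lay at -182 to -175 from the start site in Saa1, -183 to -176 in Saa2, -99 to -92 in Saa3, -216 to -209 in Lcn2 and -57 to -50 in Ptx3. Slpi (-241 to -234) and C3 (-45 to -38) held them as well, so all 7 promoters searched had a match, against 10.8% of the 32851 RefSeq promoters of the same length. The letters GGANTTTCC (kappa-B type, in 1.25% of promoters) and TTCNNNGAA (STAT type, in 8.30%) had no match in these 7. Only these exact letters were searched, not looser forms, so this does not show that kappa-B or STAT sites are absent. The motifs were picked with the Cebpb levels of these cells known, and a match of letters is not a binding site. The promoters of Saa1 and Saa2 were identical at 287 of 301 aligned positions (95.3%), so their matches are not separate hits in the count of 7. Each was about 50% identical to that of Saa3.

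Saa1, Saa2 and Saa3 lie together on chromosome 7, with Saa3 at 46711998 to 46719615, Saa1 at 46740497 to 46743181 and Saa2 at 46751833 to 46754313. The start sites that the promoter sequences of Saa1 and Saa3 use lie inside these annotated spans. Saa1 and Saa2 were all but absent outside the WT cells given LPS and cytokines together. Saa1 had 48.6, 38.0 and 39.1 CPM in WT LPS with cytokines. The 3 WT cytokine libraries had 0.388, 0.338 and 0.329 CPM, a single WT LPS library had 0.117 CPM, and WT medium had none. Saa2 had 6.72, 4.05 and 7.34 CPM in WT LPS with cytokines, and at most 0.156 CPM in any library of the other groups. No library of another group overlapped the combined treatment for either gene. Both genes passed the filter on low counts only through that treatment, so this is a description and not a test. Among all genes tested, 52.5% did not overlap between the combined treatment and WT LPS, and 60.2% between it and WT cytokines.

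For Saa1, 1326 counts in WT LPS with cytokines stood against 12 counts in WT cytokines, a ratio of 120 (95% interval 68.7 to 234), and against 1 count in WT LPS, a ratio of 1120 (201 to 44200). It was at least 496-fold higher than in WT medium, where no count was seen. For Saa2, 190 counts stood against 1 count in WT cytokines, a ratio of 207 (36.7 to 8220), and against 0 counts in WT LPS and WT medium, at least 53.4-fold and at least 71.1-fold higher. These ratios are of CPM from summed counts, the bounds set a count of 0 to 3 counts over the group, and the intervals cover counting error only. Saa1 was also called in WT cytokines over WT medium, at least 4.12-fold higher on 12 counts in all. cKO cells, which were not given the cytokines, had 1 count of Saa1 in cKO LPS and 0 in cKO medium, and 1 count of Saa2 in each. The reference transcripts of Saa1 and Saa2 are 93.9% identical and share 13.2% of the 50-base windows of Saa1, so some reads were divided between them by the authors' counting, and the estimated 543.28 and 74.79 counts of the first WT LPS with cytokines library are not whole numbers. The split of reads between Saa1 and Saa2 is therefore uncertain.

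Saa3 was the most abundant of the 9 genes where LPS and cytokines were combined. It had 6010, 5100 and 5620 CPM in WT LPS with cytokines and 325, 334 and 198 CPM in WT cytokines. In WT LPS it had 646, 1000 and 667 CPM, and in WT medium 13.3, 10.9 and 10.5 CPM. The 4 WT groups did not overlap. In the pairs of WT groups compared below, 47.4% to 63.1% of all genes tested did not overlap. On the TPM scale, which corrects for transcript length, Saa3 reached 19100 TPM in WT LPS with cytokines, rank 5 of all genes, and 2670 TPM in WT LPS, rank 44. Its transcript was 62.2% identical to that of Saa1, and 9 windows of 50 bases were shared.

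**Figure D1:**
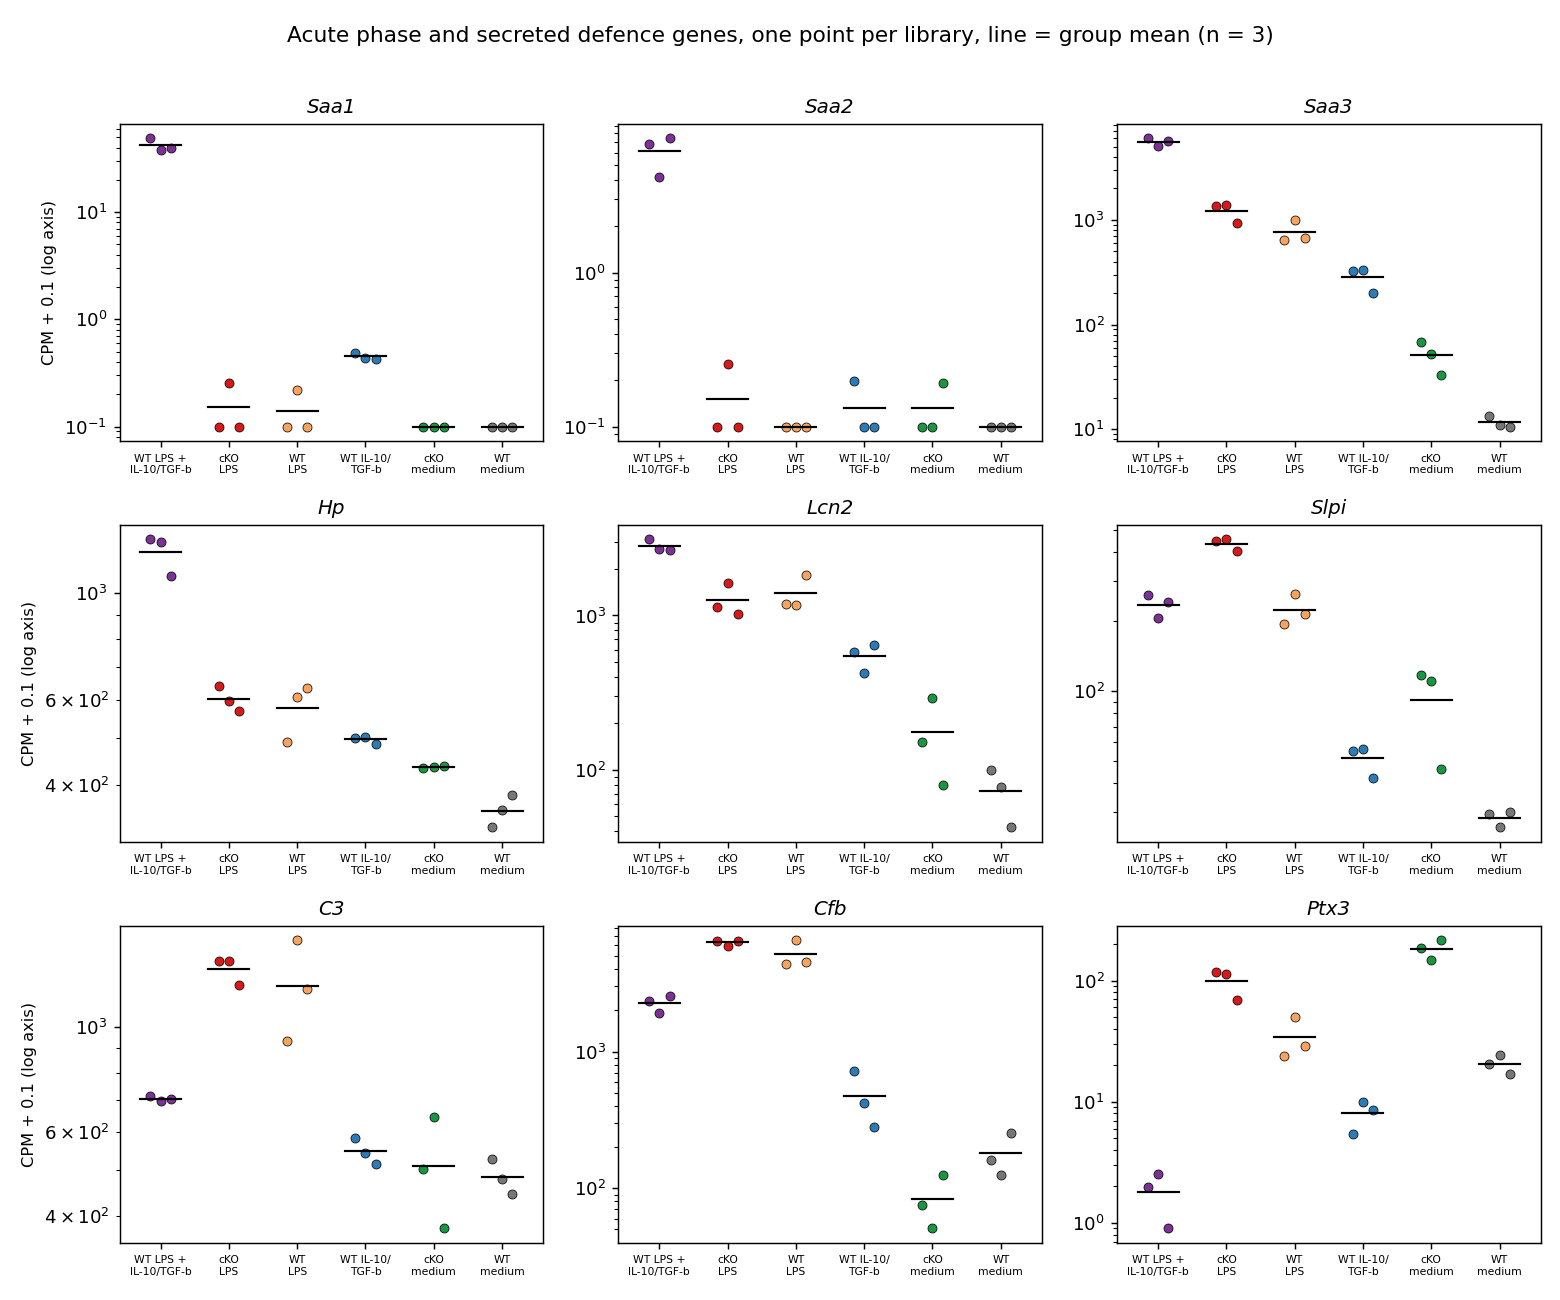
CPM + 0.1 of the 9 genes (log axis) in each library, with a line at the mean of the 3 libraries of a group. Saa1, Saa2, Saa3, Hp and Lcn2 have their highest libraries in WT LPS with cytokines (purple), Slpi, C3 and Cfb have their highest mean in cKO LPS (434, 1320 and 6270 CPM), and Ptx3 is highest in cKO medium (183 CPM) and lowest in WT LPS with cytokines (1.70 CPM).

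LPS alone raised 6 of the 7 genes other than Saa1 and Saa2 in WT cells, and Ptx3 did not pass. Saa1 and Saa2 had too few counts in these groups to be compared. Among the 11876 genes tested, 29.8% were called higher and 28.9% lower in WT LPS than in WT medium, where called means an adjusted p under 0.05 in edgeR's quasi-likelihood test with Benjamini-Hochberg adjustment. Saa3 was 66.5-fold higher (log2 fold change 6.06 ± 0.32 SE, adjusted p = 3.6e-10), the widest LPS response of the group. Cfb, whose product carries the protease of the alternative complement pathway, had 4400, 6540 and 4510 CPM in WT LPS and 161, 125 and 255 CPM in WT medium, a log2 fold change of 4.84 ± 0.43. Lcn2, which withholds iron from bacteria by binding their siderophores, had 1180, 1170 and 1820 CPM in WT LPS and 100.0, 76.8 and 42.3 CPM in WT medium, a log2 fold change of 4.25 ± 0.47. In none of these 3 genes did a WT LPS library overlap WT medium, and 63.1% of all genes tested did not overlap either.

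Slpi, an inhibitor of neutrophil elastase and cathepsin G, had 195, 263 and 215 CPM in WT LPS and 29.3, 25.6 and 29.8 CPM in WT medium (log2 fold change 2.99 ± 0.27). C3, the protein on which all complement pathways converge, had 931, 1520 and 1200 CPM in WT LPS and 526, 478 and 444 CPM in WT medium (1.33 ± 0.16). Hp, the scavenger of free haemoglobin, had 490, 607 and 635 CPM in WT LPS and 326, 354 and 380 CPM in WT medium (0.71 ± 0.10). The adjusted p was 4.7e-07 for Cfb, 1.9e-07 for Slpi, 9.9e-07 for C3, 3.8e-06 for Hp and 4.5e-06 for Lcn2. Ptx3, a long pentraxin that marks microbes for uptake, had 23.6, 50.2 and 28.7 CPM in WT LPS and 20.5, 24.4 and 16.7 CPM in WT medium. The groups overlapped and the log2 fold change of 0.73 ± 0.31 did not pass (adjusted p = 0.054); without the first WT LPS replicate it was 0.94 and passed (0.022), as it did when only these groups were fitted (0.72, 0.046) or with no count filter (0.72, 3.1e-07). Some markers of other cells were called as well. Of 5 macrophage markers 3 were higher and 2 lower in WT LPS than in WT medium, with Emr1 at 530 CPM in WT LPS and 127 CPM in WT medium. Of 14 granulocyte markers 3 were higher, Csf3r (30.3 CPM, against 7.28 CPM in WT medium), Ngp (234 CPM, against 72.3 CPM) and Camp (32.0 CPM, against 11.3 CPM). Of the list 0 were lower. With 29.8% of all genes called higher and 28.9% lower, this count does not set the granulocyte list apart. The part of these markers in the LPS results was not tested.

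Among all genes, 29.3% were called higher and 34.8% lower in cKO LPS than in cKO medium. In cKO cells LPS also raised 6 of the 7 genes other than Saa1 and Saa2. They were Cfb (log2 fold change 6.23 ± 0.46), Saa3 (4.59 ± 0.29), Lcn2 (2.84 ± 0.44), Slpi (2.26 ± 0.26), C3 (1.38 ± 0.16) and Hp (0.46 ± 0.10), with adjusted p of 0.00038 or less, the Hp change turning to -0.07 on the log2(TPM + 1) scale, where the median of all genes was -0.47. Ptx3 was lower, with 117, 113 and 68.9 CPM in cKO LPS and 186, 148 and 216 CPM in cKO medium (-0.88 ± 0.28, adjusted p = 0.014). Without the third cKO medium replicate this was -0.75 (0.052), and without the third cKO LPS replicate -0.65 (0.065). The granulocyte list (Mpo, Elane, S100a8 and others), 14 genes in all, had 8 genes lower and 1 higher in cKO LPS, with summed levels of 1070 to 2240 CPM against 1680 to 4200 CPM in cKO medium. Its part in these differences was not tested.

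The cytokines without LPS raised 5 of the 7 genes other than Saa1 and Saa2, and lowered Ptx3. Among all genes, 18.3% were called higher and 16.9% lower in WT cytokines than in WT medium. Saa3 was 24.7-fold higher (log2 fold change 4.62 ± 0.30, adjusted p = 9.4e-09). Lcn2 had 577, 427 and 646 CPM in WT cytokines and 100.0, 76.8 and 42.3 CPM in WT medium (2.91 ± 0.44, adjusted p = 2e-04). Hp had 499, 503 and 486 CPM in WT cytokines and 326, 354 and 380 CPM in WT medium (0.49 ± 0.10, adjusted p = 0.00058). The libraries of the groups did not overlap for these genes, as for 47.4% of all genes tested. Saa1, described above, was called as well, on few counts. It is left out of the count of genes raised, because it passed the filter on low counts only through the combined treatment.

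Cfb had 718, 418 and 280 CPM in WT cytokines and 161, 125 and 255 CPM in WT medium (log2 fold change 1.39 ± 0.38, adjusted p = 0.011). The first WT cytokine library was the highest, and without it the change was 0.96 (0.051); fitted on these groups alone it was 1.38 (0.067). Slpi had 54.9, 56.0 and 42.0 CPM in WT cytokines and 29.3, 25.6 and 29.8 CPM in WT medium (0.85 ± 0.26, adjusted p = 0.019). Its call was lost without the first or the second replicate of either group, with changes of 0.78 to 0.88 and adjusted p of 0.05 to 0.07. Ptx3 had 5.34, 9.90 and 8.47 CPM in WT cytokines and 20.5, 24.4 and 16.7 CPM in WT medium (-1.36 ± 0.34, adjusted p = 0.006). C3 had 582, 543 and 515 CPM in WT cytokines and 526, 478 and 444 CPM in WT medium, groups that overlapped (0.18 ± 0.16, adjusted p = 0.42).

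Adding the cytokines to LPS split the 7 genes other than Saa1 and Saa2. Saa3 and Hp were higher in WT LPS with cytokines than in WT LPS, C3, Cfb and Ptx3 were lower, and Lcn2 and Slpi did not pass, against 19.1% of all genes called higher and 21.1% lower. Saa1 and Saa2 are left out of this count, because they passed the filter on low counts only through the combined treatment and so had to differ. Saa3 was 7.23-fold higher (log2 fold change 2.85 ± 0.27, adjusted p = 6e-07). Hp had 1290, 1270 and 1080 CPM in WT LPS with cytokines and 490, 607 and 635 CPM in WT LPS (1.07 ± 0.10, adjusted p = 3.8e-08). The libraries of the groups compared did not overlap for Saa3 and Hp, as for 52.5% of all genes tested.

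Ptx3 was lowest of all in the combined treatment, with 1.88, 2.41 and 0.804 CPM in WT LPS with cytokines and 23.6, 50.2 and 28.7 CPM in WT LPS. It was 19.8-fold lower (log2 fold change -4.31 ± 0.43, adjusted p = 1.8e-06). C3 had 716, 698 and 703 CPM in WT LPS with cytokines and 931, 1520 and 1200 CPM in WT LPS (-0.78 ± 0.16, adjusted p = 0.00064). Cfb had 2340, 1900 and 2550 CPM in WT LPS with cytokines and 4400, 6540 and 4510 CPM in WT LPS (-1.19 ± 0.37, adjusted p = 0.021). The Cfb call was lost without the second WT LPS replicate (-0.97, adjusted p = 0.088) or without the first or second replicate of the combined treatment (-1.21 and -1.07, adjusted p = 0.053 and 0.078).

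Lcn2 had 3120, 2700 and 2670 CPM in WT LPS with cytokines and 1180, 1170 and 1820 CPM in WT LPS. These libraries did not overlap, yet the log2 fold change of 1.02 ± 0.41 missed the threshold in edgeR (adjusted p = 0.065). It passed in DESeq2 (0.034) and when only these groups were fitted (0.00063). Slpi had 261, 206 and 242 CPM in WT LPS with cytokines and 195, 263 and 215 CPM in WT LPS, groups that overlapped (0.07 ± 0.24, adjusted p = 0.83).

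**Figure D2:**
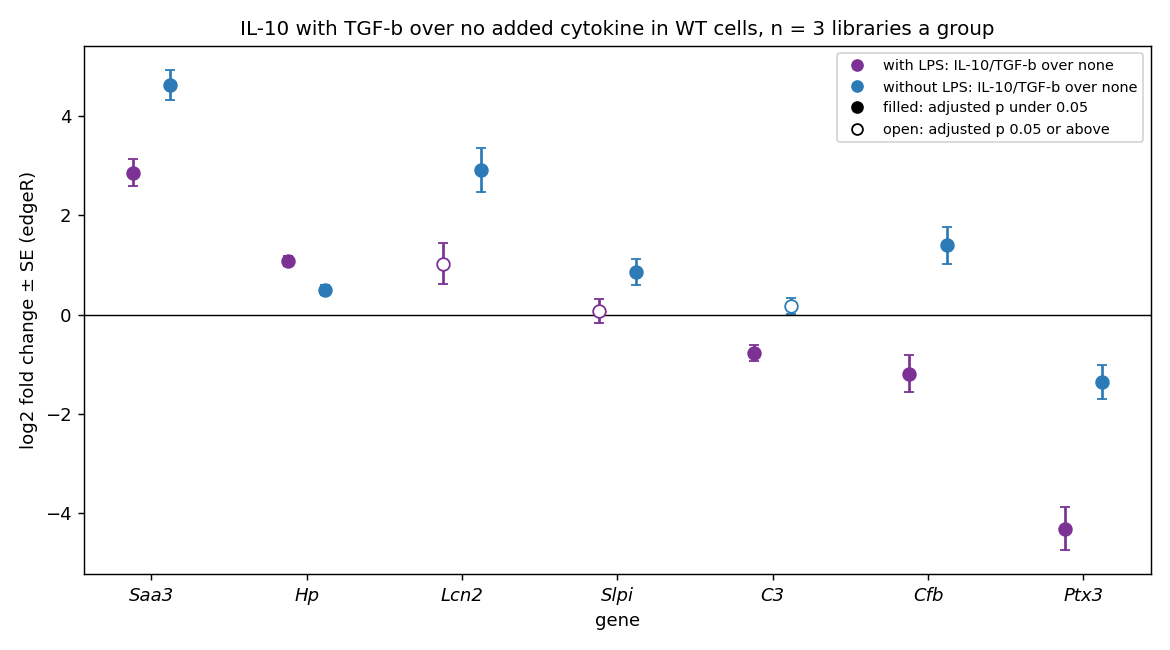
Log2 fold change ± SE of 7 genes for IL-10 with TGF-beta over no added cytokine, with LPS (purple) and without it (blue), 3 libraries a group. Saa3 is higher in both settings (2.85 with LPS, 4.62 without), Ptx3 is lower in both (-4.31 and -1.36), and Cfb is lower with LPS (-1.19) and higher without it (1.39). Saa1 and Saa2 are left out because a compared group had 3 counts or fewer.

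With LPS given on top of the cytokines, 5 of the 7 genes other than Saa1 and Saa2 were higher and Ptx3 was lower, against 23.9% of all genes higher and 23.1% lower in WT LPS with cytokines than in WT cytokines. They were Saa3 (log2 fold change 4.29 ± 0.29), Lcn2 (2.36 ± 0.43), Cfb (2.26 ± 0.38), Slpi (2.21 ± 0.26) and Hp (1.29 ± 0.10). Ptx3 changed by -2.21 ± 0.47 (adjusted p = 0.0016). C3 changed by 0.37 ± 0.16 and missed the threshold (adjusted p = 0.066), although its libraries did not overlap, as for 60.2% of all genes tested. Fitted on these groups alone it passed (0.00068).

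The interaction term asks whether the log2 response to LPS differed with the cytokines present. Over all genes it was more positive for 8.88% and more negative for 12.1%. It was positive for Hp (0.58 ± 0.14, adjusted p = 0.0052) and negative for Saa3 (-1.77 ± 0.37, 0.0031), Lcn2 (-1.88 ± 0.59, 0.038), C3 (-0.96 ± 0.23, 0.0048), Cfb (-2.58 ± 0.53, 0.0036) and Ptx3 (-2.94 ± 0.57, 0.002). The Lcn2 term was lost on leaving out any library of these groups, with adjusted p of 0.051 to 0.09, except the first of WT medium, the second of WT cytokines and the first of WT LPS. A ratio scale and a level scale gave different pictures. On the level scale, the mean of WT LPS plus that of WT cytokines minus that of WT medium was 1050 CPM for Saa3, below the 5100 to 6010 CPM measured in the combined treatment. The combined libraries were likewise above that sum for Saa1, Saa2, Hp (720 CPM) and Lcn2 (1870 CPM), so 5 of the 9 genes exceeded it. Slpi enclosed it (247 CPM), and C3 (1280 CPM), Cfb (5440 CPM) and Ptx3 (21.6 CPM) were below it. These sums are a description with no test.

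Markers of other cells moved with the cytokine groups. The granulocyte list was 3820 to 4670 CPM in WT LPS with cytokines and 6430 to 9130 CPM in WT cytokines, against 1150 to 2790 CPM in WT LPS and 937 to 1500 CPM in WT medium. It had 8 of 14 genes higher and 2 lower in WT LPS with cytokines than in WT LPS (median log2 fold change 1.32, all genes -0.01), and 12 of 14 higher in WT cytokines than in WT medium (3.13, all genes 0). Between the groups with cytokines the summed level was lower with LPS. Of the 14 genes, 0 were called higher and 1 lower there (median log2 fold change -0.87, all genes 0). Of 5 macrophage genes, 4 were higher in WT LPS with cytokines than in WT LPS, and 4 in WT cytokines than in WT medium. Csf1r was at 1920 CPM in WT LPS with cytokines and 720 CPM in WT LPS. Of 5 dendritic cell markers tested, 5 were lower in WT LPS with cytokines than in WT LPS, and 4 in WT cytokines than in WT medium. The part of these markers in the results was not tested.

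In medium, 5 of the 7 genes other than Saa1 and Saa2 were higher in cKO cells than in WT cells and Cfb was lower. Among all genes, 15.8% were called higher and 14.4% lower in cKO medium than in WT medium. Ptx3 had 186, 148 and 216 CPM in cKO medium and 20.5, 24.4 and 16.7 CPM in WT medium, 8.95-fold higher (log2 fold change 3.16 ± 0.31, adjusted p = 9.5e-06). Saa3 had 67.7, 51.8 and 33.2 CPM in cKO medium and 13.3, 10.9 and 10.5 CPM in WT medium (2.13 ± 0.28, adjusted p = 7.6e-05). Slpi had 117, 110.0 and 45.8 CPM in cKO medium and 29.3, 25.6 and 29.8 CPM in WT medium (1.68 ± 0.26, adjusted p = 0.00029). The groups did not overlap for these 3 genes, as for 39.4% of all genes tested. Each of the 3 kept its call without any single library.

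Hp, Lcn2 and Cfb were called in cKO medium with less margin. Hp had 433, 435 and 438 CPM in cKO medium and 326, 354 and 380 CPM in WT medium (log2 fold change 0.30 ± 0.10, adjusted p = 0.026). Lcn2 had 152, 294 and 80.1 CPM in cKO medium and 100.0, 76.8 and 42.3 CPM in WT medium, groups that overlapped (1.26 ± 0.42, adjusted p = 0.039). Cfb had 75.0, 50.9 and 124 CPM in cKO medium and 161, 125 and 255 CPM in WT medium (-1.11 ± 0.38, adjusted p = 0.041). The Hp call was lost without the first or the third cKO medium replicate (0.059 each) or the first or second WT medium replicate (0.12 and 0.058). The Lcn2 call was lost without the first or second cKO medium replicate (0.065 and 0.2, with changes of 1.35 and 0.67) or the second or the third WT medium replicate (0.08 and 0.14). The Cfb call was lost without the first or second cKO medium replicate (0.12 and 0.13) or the first or the third WT medium replicate (0.065 and 0.18). When only these groups were fitted, Hp (0.064), Lcn2 (0.21) and Cfb (0.13) did not pass. C3 had 503, 646 and 377 CPM in cKO medium and 526, 478 and 444 CPM in WT medium and did not pass (0.07 ± 0.16, adjusted p = 0.76).

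Granulocyte genes were higher in cKO medium as well, 10 of 14, with a median log2 fold change of 1.48 against 0 for all genes. Their summed level was 3560, 4200 and 1680 CPM in the 3 cKO medium libraries and 1500, 1210 and 937 CPM in WT medium. The third cKO medium library, lowest for the granulocyte list, was also lowest of the 3 for Saa3, Lcn2, Slpi and C3. It was highest for Hp, Ptx3 and Cfb. The second was highest for the granulocyte list, Lcn2 and C3, and the first for Saa3 and Slpi. The part of these cells in the results was not tested. Cfb lies on chromosome 17 at 34856374 to 34862514, 273 kb from Bag6 (35135156 to 35147321) in the MHC class III region. Of 29 other genes tested there, 3 were higher and 5 lower in cKO medium, with a median log2 fold change of -0.03.

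With LPS, 3 of the 7 genes other than Saa1 and Saa2 were higher in cKO cells and 0 lower. Among all genes, 16.0% were higher and 19.3% lower. Ptx3 had 117, 113 and 68.9 CPM in cKO LPS and 23.6, 50.2 and 28.7 CPM in WT LPS (log2 fold change 1.55 ± 0.30, adjusted p = 0.0013). Slpi had 444, 454 and 405 CPM in cKO LPS and 195, 263 and 215 CPM in WT LPS (0.95 ± 0.25, adjusted p = 0.0078). The groups did not overlap for either gene, as for 49.3% of all genes tested. Saa3 had 1350, 1390 and 940 CPM in cKO LPS and 646, 1000 and 667 CPM in WT LPS, groups that overlapped (0.67 ± 0.25, adjusted p = 0.049). Its call was lost without the first or second cKO LPS replicate (0.12 and 0.14) or the first or the third WT LPS replicate (0.19 and 0.15), and on the log2(TPM + 1) scale, where the median of all genes was -0.31, it was 0.32 (0.25). The granulocyte list was 1070 to 2240 CPM in cKO LPS and 1150 to 2790 CPM in WT LPS, with a median log2 fold change of -0.38.

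Hp, Lcn2, C3 and Cfb did not pass between cKO LPS and WT LPS. Lcn2 had 1130, 1630 and 1020 CPM in cKO LPS and 1180, 1170 and 1820 CPM in WT LPS (log2 fold change -0.15 ± 0.41, adjusted p = 0.81). Cfb had 6430, 5930 and 6460 CPM in cKO LPS and 4400, 6540 and 4510 CPM in WT LPS (0.28 ± 0.37, adjusted p = 0.58). Hp had 641, 595 and 567 CPM in cKO LPS and 490, 607 and 635 CPM in WT LPS (0.06 ± 0.10, adjusted p = 0.69, but -0.29 and 0.013 on the log2(TPM + 1) scale), and C3 had 1370, 1370 and 1220 CPM in cKO LPS and 931, 1520 and 1200 CPM in WT LPS (0.12 ± 0.16, adjusted p = 0.6).

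The interaction of genotype with LPS was negative for Saa3 (-1.46 ± 0.37, adjusted p = 0.015) and Ptx3 (-1.61 ± 0.42, adjusted p = 0.018), against 7.33% of all genes more positive and 10.1% more negative. With RLE scaling, 55.2% of the called interactions were positive, against 42.0% with TMM. With the 2 cKO libraries of female pattern left out, the Saa3 term was -1.28 and did not pass (adjusted p = 0.05). For Saa3 the fit over all libraries set a response of 4.59 in cKO cells against 6.06 in WT cells, and for Ptx3 a response of -0.88 against 0.73. Lcn2 (-1.41 ± 0.59, 0.12), Slpi (-0.73 ± 0.35, 0.17), Cfb (1.39 ± 0.53, 0.086), Hp (-0.24 ± 0.14, 0.24) and C3 (0.04 ± 0.23, 0.93) did not pass. Without the third cKO medium replicate, the terms of Lcn2 (-1.75, 0.029), Slpi (-1.05, 0.00099) and Cfb (1.80, 0.03) passed too.

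**Figure D3:**
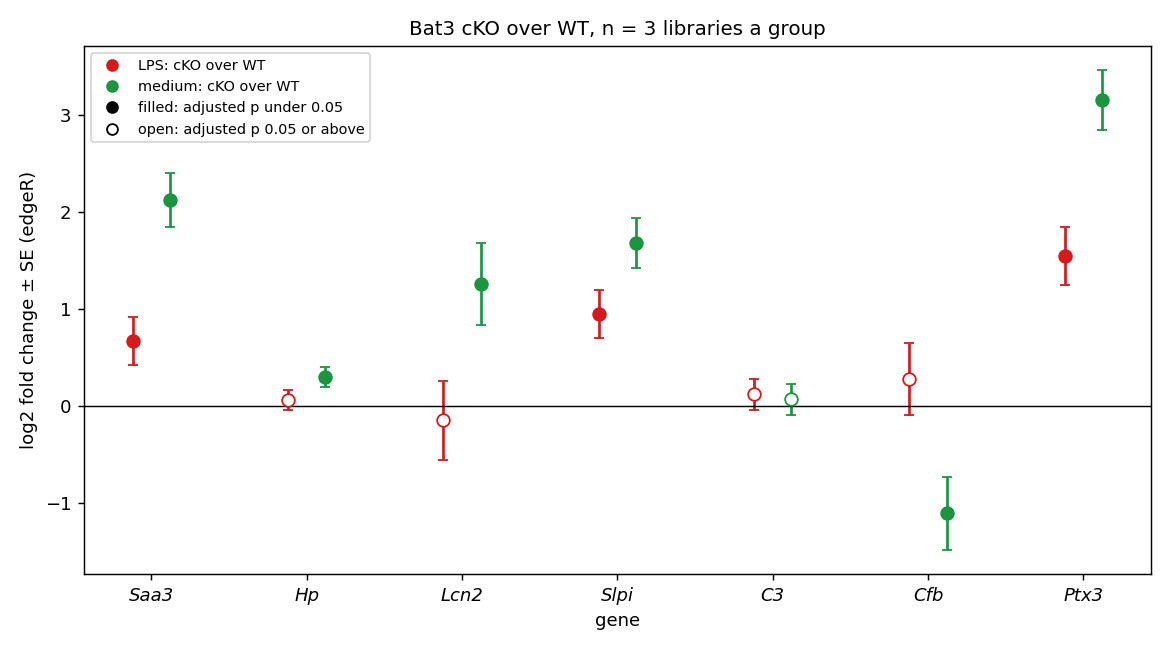
Log2 fold change ± SE of 7 genes in cKO over WT cells, with LPS (red) and in medium (green), 3 libraries a group, filled where the adjusted p was under 0.05. Ptx3, Saa3 and Slpi lie above 0 in both settings, at 1.55, 0.67 and 0.95 with LPS and 3.16, 2.13 and 1.68 in medium. Saa1 and Saa2 are left out, with at most 1 count in each group.

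Per transcript length, the order of the 9 genes changed with the treatment. In cKO LPS the order was led by Saa3 (3340 TPM), Cfb (2790 TPM) and Lcn2 (1960 TPM), and in cKO medium by Hp (595 TPM) and Lcn2 (399 TPM). In WT LPS with cytokines Saa3 was followed by Lcn2 (5560 TPM), Hp (1440 TPM) and Cfb (1260 TPM). WT cytokines were led by Lcn2 (1200 TPM) and Saa3 (1080 TPM). In WT LPS the leading 3 lay close together, Cfb at 2920 TPM, Lcn2 at 2800 TPM and Saa3 at 2670 TPM, and in WT medium Hp led with 511 TPM. As a ratio of highest to lowest group mean, C3 and Hp had the narrowest ranges, 483 to 1320 CPM and 353 to 1210 CPM. By the same ratio Saa3 had the widest of the genes counted in every library, 11.6 to 5570 CPM. In the order of groups by mean CPM, cKO LPS and WT LPS were neighbours and overlapped for Saa3, Hp, Lcn2, C3 and Cfb. WT LPS and WT medium were neighbours and overlapped for Ptx3, and WT cytokines, cKO medium and WT medium for C3.

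**Figure D4:**
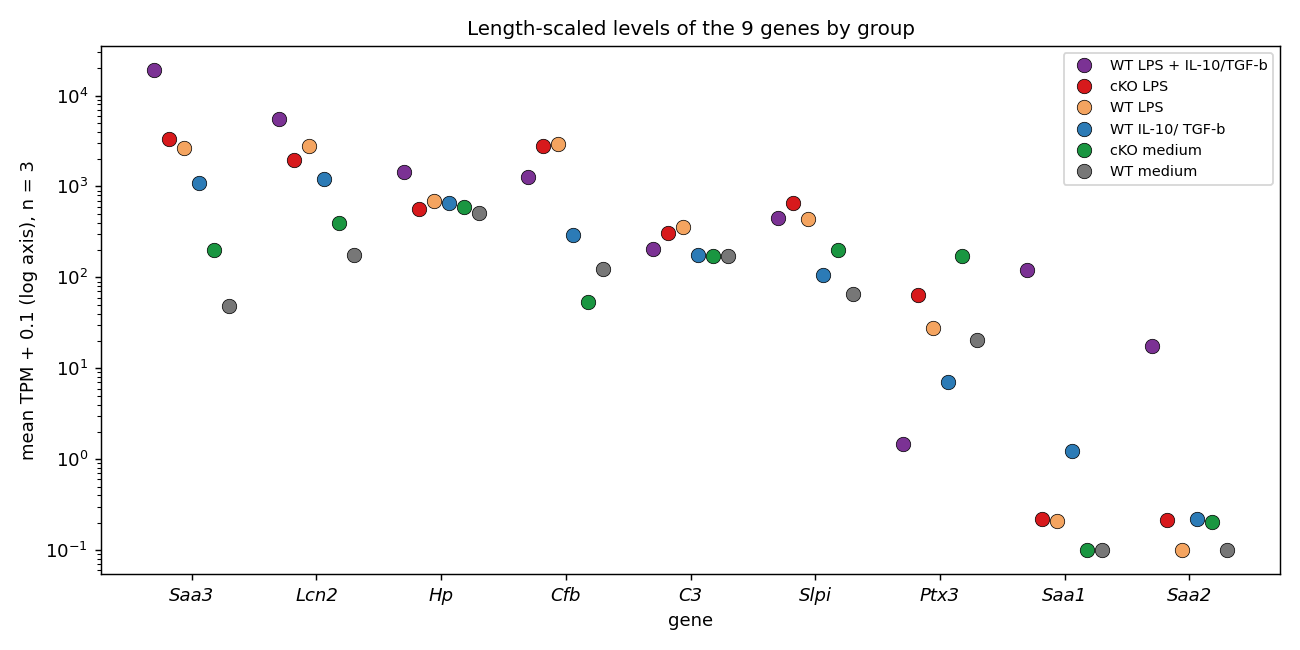
Mean TPM + 0.1 (log axis) of the 9 genes in the 6 groups, each point the mean of 3 libraries. Saa3 is at 19100 TPM in WT LPS with cytokines and at 47.9 TPM in WT medium, while Hp stays between 511 and 1440 TPM.

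Regulators of acute phase genes were measured beside them, 26 genes, all tested. In cKO medium 13 were higher and 2 lower (median log2 fold change 0.34, all genes 0), led by Osm, a cytokine of the IL-6 family (267 CPM, against 54.1 CPM in WT medium), Nfkbiz and Il1b. In cKO LPS 11 were higher and 4 lower than in WT LPS (0.23, all genes -0.05), led by Osm, Tnf and Cebpb. Adding cytokines to LPS gave 7 higher and 12 lower (-0.07, all genes -0.01), with Il6, Tnf and Nfkb2 the leading genes, all lower. The cytokines alone gave 14 higher and 4 lower (0.65, all genes 0), among them Osm (554 CPM, against 54.1 CPM in WT medium) and Il1b.

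Cebpb, the C/EBP factor of inflammatory genes, had 42.4, 116 and 51.1 CPM in cKO LPS and 1.79, 3.85 and 3.09 CPM in WT LPS, and 31.0, 60.3 and 107 CPM in cKO medium and 1.02, 2.66 and 2.02 CPM in WT medium. It was 5.20, 6.07 and 8.65 CPM in WT LPS with cytokines, a log2 fold change of 1.18 ± 0.64 over WT LPS that did not pass (adjusted p = 0.16). Nfkbiz, the nuclear IkappaB-zeta that NF-kappa-B needs at the Lcn2 promoter, averaged 47.1 CPM in cKO medium and 15.4 CPM in WT medium (1.62 ± 0.16, adjusted p = 7.2e-07). Nfkbiz was lower in WT LPS with cytokines (60.5 CPM) than in WT LPS (97.4 CPM), a change of -0.69 ± 0.14. Il6 averaged 24.8 CPM in WT LPS with cytokines and 107 CPM in WT LPS (-2.10 ± 0.17, adjusted p = 1.5e-08), and Il1b 1390 and 2050 CPM in the same groups (-0.56 ± 0.16, 0.0097). Saa3 and Hp were highest in a group where Il6, Il1b and Nfkbiz were below their WT LPS levels. Il6, Il1b and Nfkbiz were above their WT medium means there (7.28, 377 and 15.4 CPM, in that order). The part of these regulators in the results was not tested.

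**Figure D5:**
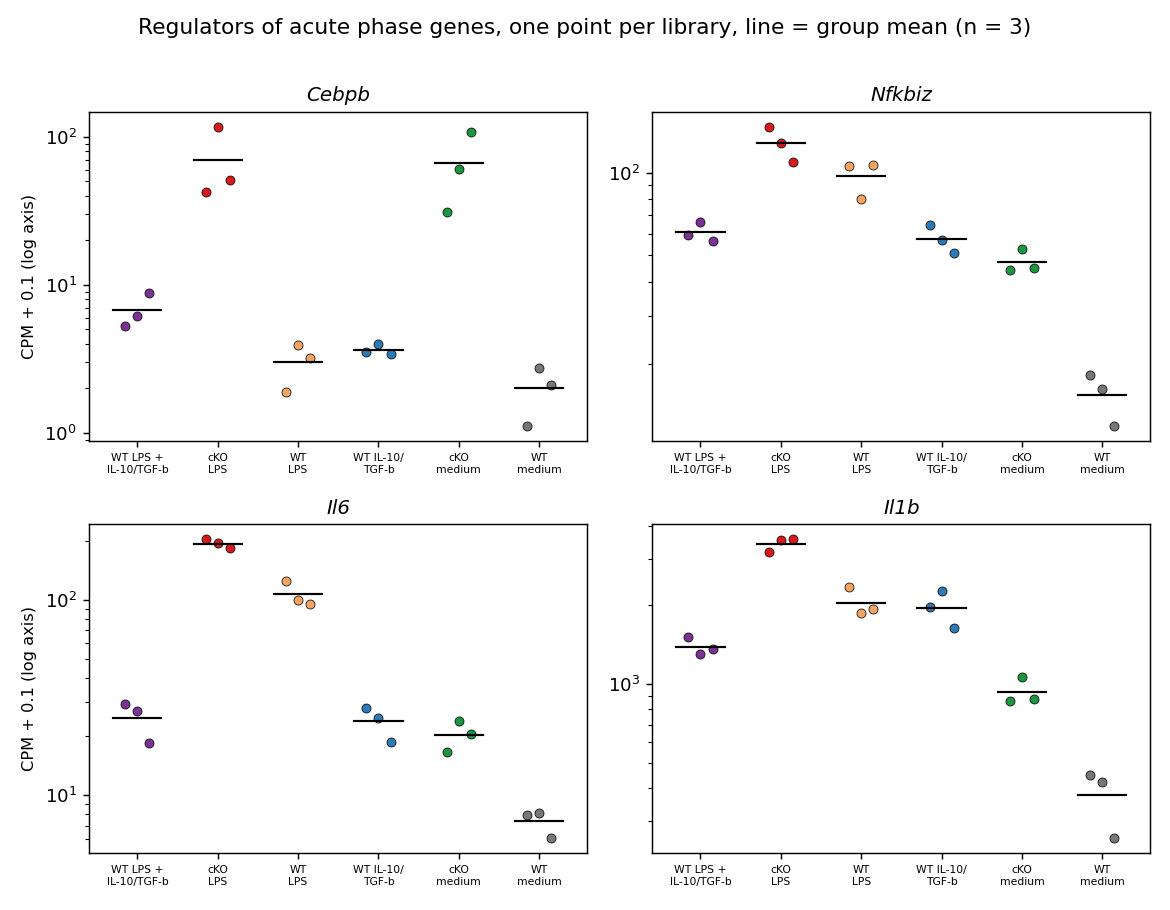
CPM + 0.1 (log axis) of Cebpb, Nfkbiz, Il6 and Il1b in each library, with a line at the mean of the 3 libraries of a group. Cebpb is at 31.0 CPM or more in every cKO library and at 8.65 CPM or less in every WT library, and Il6 averages 194 CPM in cKO LPS, 107 CPM in WT LPS and 24.8 CPM in WT LPS with cytokines.

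Of 24 other acute phase proteins listed, 11 were tested. In WT LPS with cytokines 2 were higher and 6 lower than in WT LPS (median log2 fold change -0.44, all genes -0.01). Ambp, the precursor of alpha-1-microglobulin, averaged 10.3 CPM in WT LPS with cytokines and 0.0368 CPM in WT LPS. Cp, the copper carrier ceruloplasmin, was lower (1.78 CPM, against 26.2 CPM in WT LPS, -3.87 ± 0.28), as was Serpina3g (-2.94 ± 0.43). LPS alone raised 9 of the 11 (2.30, all genes 0.01), led by Il1rn, Cp and Timp1. In cKO medium 3 were higher, among them Il1rn and F3 (0.62, all genes 0), and in cKO LPS 5 were higher, among them Hamp and Il1rn (0.70, all genes -0.05).

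Of 34 other complement genes, 19 were tested. In WT LPS with cytokines 13 were higher and 3 lower than in WT LPS (median log2 fold change 1.21, all genes -0.01), while C3 and Cfb were lower. Fcnb, a ficolin of the lectin pathway (2.59 ± 0.22), and C1qa, a chain of C1q (2.61 ± 0.24), were higher, and Itgax, a chain of complement receptor 4, was lower (-1.22 ± 0.13). In WT cytokines 11 were higher and 3 lower than in WT medium (0.81, all genes 0), with Fcnb and C1ra higher and Itgax lower in the lead. In WT LPS 5 were higher and 8 lower than in WT medium (-0.40, all genes 0.01). C3ar1, the receptor for the C3a fragment, was higher (1.75 ± 0.12), and C1qb (-2.26 ± 0.17) and C1qa (-2.88 ± 0.23) were lower. Between genotypes, 5 were higher and 1 lower in cKO medium, led by C3ar1, Fcnb and Cd55, and 5 higher and 2 lower in cKO LPS, where the C5a receptors C5ar1 (-1.45 ± 0.25) and C5ar2 (-2.83 ± 0.58) were lower and C3ar1 was higher (0.46 ± 0.12).

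Of 16 other antimicrobial genes, 12 were tested. In cKO medium 5 were higher (median log2 fold change 0.76, all genes 0), led by Nos2, which makes nitric oxide, the chitinase-like Chi3l3 and the peptidoglycan-binding Pglyrp1. In cKO LPS 3 were higher, Nos2 (2410 CPM, against 1050 CPM in WT LPS), 1100001G20Rik and Wfdc17 (0.37, all genes -0.05). The last of these belongs, like Slpi, to the whey acidic protein family. In WT LPS with cytokines 2 were higher and 4 lower than in WT LPS (0.05, all genes -0.01), with Chi3l3 higher (1.60 ± 0.22) and the lysozymes Lyz2 (4520 CPM, against 9030 CPM in WT LPS) and Lyz1 (658 CPM, against 1310 CPM) lower.

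Of 20 receptors and partners of these proteins, 17 were tested. In WT LPS with cytokines 8 were higher and 3 lower than in WT LPS (median log2 fold change 0.44, all genes -0.01), with Tlr2, a receptor reported to sense serum amyloid A (593 CPM, against 243 CPM in WT LPS), Scarb1, the lipoprotein receptor (175 CPM, against 87.2 CPM), higher and Itgax lower. In cKO LPS 4 were higher and 3 lower than in WT LPS (-0.07, all genes -0.05), near the shares of all genes called there (16.0% and 19.3%). Tnfaip6, a partner of Ptx3 in matrix, was higher (7.25 CPM, against 1.13 CPM in WT LPS), and Fpr1 (-1.26 ± 0.15) and Tlr4 (-0.81 ± 0.11) were lower. In cKO medium 4 were higher and 2 lower, near the shares of all genes called there (15.8% and 14.4%), with C3ar1 and Scarb1 higher and Fcgr1 lower in the lead.

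For each gene up to 3 genes of the most similar pattern were taken from 8971 well expressed genes by Pearson's r of log2 CPM over the 18 libraries, a description that rests largely on the 6 groups. Saa3 was most like Tmem104 (0.985), Ncf4 (0.981) and March1 (0.98). Lcn2 was most like Ncf4 (0.98), Sbno2 (0.973) and Plac8 (0.961). Hp was most like Ggta1 (0.967), Chka (0.966) and Galnt6 (0.955). Slpi was most like C3ar1 (0.975) and Ptges (0.973), and C3 most like Ehd1 (0.979), Zfp809 (0.971) and Rictor (0.964). For Cfb the likest were Slc35f6 (0.991), Gbp9 (0.989) and Car13 (0.982), and for Ptx3 Ppic (0.937), Hint3 (0.937) and Ezh2 (0.934). Saa1 and Saa2 shared Trpv2 (0.935 and 0.933) and Rnf149 (0.93 and 0.908) among their 3, with Fam20c (0.938) for Saa1 and Stxbp5 (0.904) for Saa2.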

How the data were processed

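RNA was measured in 18 libraries, 3 in each of 6 groups taken from the sample titles. For every gene the authors deposited an expected count, an estimate that need not be whole, and a TPM value. The submitters' processing notes name bcl2fastq, RSEM and mm10, and versions are not given in the sources used here. TPM gave levels per length and an alternative scale. Strandedness is not given in the sources used here.

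Expected counts were rounded, 11876 of 23420 genes passed filterByExpr, and TMM scaling preceded edgeR 4.0.16 (R 4.3.3) robust quasi-likelihood fits over all 6 groups without covariates. Calls used a Benjamini-Hochberg adjusted p under 0.05 in 7 comparisons and 2 interactions. All 9 members passed the filter, Saa1 and Saa2 only through WT LPS with cytokines. CPM uses TMM library sizes. No fitted fold is given where a group had 3 or fewer counts. The fit was tested on simulated data.

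The members, gene lists, motifs and the named-gene rule (members, Bag6, 3 called genes of smallest p per list, 4 regulators, 3 most alike genes) were chosen with earlier results of these data known. The labels name 5 biological replicates and triplicates, but no separate animals or cultures, so p-values measure the spread among these libraries. Alternatives used DESeq2 1.42.0, limma 3.58.1 and other scalings, filters and libraries. Sequences were aligned with Biopython. Same-numbered libraries deviated together (every correlation over 0.1) in 1 of 15 pairs of groups, WT medium and WT cytokines (0.32, 0.18 and 0.4 over 9411 genes). A few genes that the named-gene rule picks are not reported here.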

Additional observations from a re-analysis of the deposited data

Results flagged for a closer look

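The response to LPS differed between cKO and WT cells for 2 of the 7 genes other than Saa1 and Saa2. This was by the interaction term of the edgeR fit with adjustment over all genes. Among all genes tested, that term was more positive for 7.33% and more negative for 10.1%. The difference in log2 response was -1.46 ± 0.37 for Saa3 (adjusted p = 0.015) and -1.61 ± 0.42 for Ptx3 (adjusted p = 0.018). With the 2 cKO libraries of female pattern left out, the Saa3 term did not pass (-1.28, adjusted p = 0.05). Both genes were already higher in cKO medium than in WT medium.

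The response to LPS differed between WT cells with and without the cytokines for 6 genes. Among all genes tested, the interaction term was more positive for 8.88% and more negative for 12.1%. The difference was 0.58 ± 0.14 for Hp (adjusted p = 0.0052), -0.96 ± 0.23 for C3 (0.0048), -1.77 ± 0.37 for Saa3 (0.0031), -1.88 ± 0.59 for Lcn2 (0.038), -2.58 ± 0.53 for Cfb (0.0036) and -2.94 ± 0.57 for Ptx3 (0.002). The Lcn2 term was lost in 9 of 21 alternatives, each leaving out a single library, with adjusted p of 0.051 to 0.09. For Saa3 and Lcn2 the smaller log2 response started from a level that the cytokines had already raised, and both reached their highest level in the combined treatment.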

How the results depend on the processing

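Of 64 results for single members, 38 kept direction and side of the threshold under every alternative. Fitting only the groups compared gave 2306 calls between cKO medium and WT medium, against 3583, and removing the first replicate of both cKO groups gave 1268 genotype interactions, against 2070. Without those 2 libraries the cKO medium calls of Hp, Lcn2 and Cfb, the Saa3 call in cKO LPS (0.59, adjusted p = 0.096) and its interaction (-1.28, 0.05) were lost, leaving 3 members higher in cKO medium and 2 in cKO LPS. On log2(TPM + 1) and log2(TPM + 0.1) there were 3323 and 3420 genotype interactions, 12.5% and 10.9% of them positive against 42.0%. TPM is not TMM-scaled, and with the larger pseudocount it moved the median of all genes to -0.31 between cKO LPS and WT LPS, -0.47 between cKO LPS and cKO medium, -0.19 for LPS in WT cells, -0.25 and 0.1 for the genotype and cytokine interactions, and -0.12 and -0.11 for cytokines alone and LPS over cytokines. The share of calls that were higher was then 39.5% (against 52.4%) in cKO over WT medium, 11.7% (45.3%) in cKO over WT LPS, 21.6% (45.7%) for LPS in cKO cells, 32.9% (50.8%) for LPS in WT cells, 34.2% (52.0%) for cytokines, 35.7% (50.9%) for LPS over cytokines and 56.1% (42.4%) for the cytokine interaction. Signs turned on both TPM scales for C3 in cKO medium (-0.04), for Hp (-0.29 and -0.3, adjusted p = 0.013), C3 (-0.22) and Cfb (-0.05) in cKO over WT LPS, for Hp with LPS in cKO cells (-0.07) and for the C3 genotype interaction (-0.17).

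Leaving out single libraries, signs turned for C3 in cKO medium (-0.14 to 0.25), for Lcn2 (-0.35 to 0.1), Hp (-0.05 to 0.13) and C3 (-0.04 to 0.31) in cKO over WT LPS, for Slpi in WT LPS with cytokines over WT LPS (-0.01 to 0.2) and for the C3 genotype interaction (-0.13 to 0.25), none of which passed. The replicate block changed the calls of Lcn2 in cKO medium (1.23, adjusted p = 0.058), Cfb in cKO medium (-1.12, 0.05) and C3 for LPS over cytokines (0.37, 0.041) and no other member's, and moved no count of calls by over 1.5 times. Depth limits Saa1 and Saa2, whose counts outside the combined treatment were 12 or fewer a group.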
